A study of Mus musculus with 6 samples.

Results

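The genes described here are 10 that encode the ligands and receptors of VEGF and angiopoietin signalling: Vegfa, Vegfb, Vegfc, Kdr, Flt1, Flt4, Tek, Tie1, Angpt1 and Angpt2. They were chosen by name, as the rows with these gene symbols among the 20637 genes listed for each library, and all 10 were found. Poly(A) RNA from the whole uterus of female mice at postnatal day 21 (PND21) was sequenced in 3 Nat10 f/f libraries (floxed, called controls here) and 3 Nat10 d/d libraries (called Nat10-deleted here). Nat10 encodes the acetyltransferase that places acetyl groups on cytidines of RNA. The labels name no Cre driver, strain or litter, and do not say which uterine cells lost the gene. They also do not say that each library came from a separate animal, so the p-values below measure the spread between these libraries.

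VEGF ligands are secreted and bind receptor tyrosine kinases that sit mainly on endothelial cells, where they drive vessel sprouting, survival and permeability. Vegfa acts through Kdr (VEGFR2), the main signalling receptor of blood endothelium, and through Flt1 (VEGFR1), which binds the ligand tightly but signals weakly and can act as a decoy. Vegfb binds Flt1, and Vegfc acts through Flt4 (VEGFR3) on lymphatic endothelium. Angpt1, made largely by cells around vessels, activates Tek (Tie2) and stabilises vessels. Angpt2, made by endothelial cells, is a context-dependent antagonist of Tek, and Tie1 is an orphan partner receptor of Tek. In the uterus this system serves the vascular growth that accompanies tissue growth, the oestrous cycle and implantation.

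Across the whole series, the FPKM-type values (read abundance per gene length and library depth) summed to 500764 to 549263 per library, and the deepest library was about 1.26 times as deep as the shallowest. Nat10, the targeted gene, stood at 9.95 to 16.4 in controls and did not exceed 5.57 with Nat10 deleted. Deleted replicate 2 stood apart from the other 5 libraries on the first principal component (score -40.2, others -4.6 to 25.1; 48.4% of the variance). Deleted replicate 1 had the lowest score on the second component (-25.7, others -7.6 to 19.1; 23.3%). The summed level of 12 proliferation markers was 489 in deleted replicate 2 and 78.2 to 214 in the other libraries. All 8 markers of each of the smooth muscle, stroma and epithelium lists were listed at 1 or more in at least 1 library, and all 20 blood endothelial markers passed the filter on low values. The summed level of 7 blood cell markers was 852 to 5580 in controls against 709 to 1720 with Nat10 deleted, and its part in the results below was not tested.

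The 250 bases before the annotated start of Kdr, Flt1, Tek and Vegfa are shown because these 4 genes were lower in every deleted library than in every control and have an entry in the RefSeq promoter table (build GRCm38.p6; 8 of the 10 genes matched). Each is written 5′ to 3′ on the strand of its gene. Capitals mark every match, on either strand, to one of 6 short motifs. The letters searched were AGGAAG for a first ETS factor motif, with CGGAAG for a second one that differs in its first base. The GATA factor motif was AGATAA, the hypoxia response motif was ACGTG, the GC box that Sp1 binds was GGGCGG, and the TATA box was TATAAA. Matches of different motifs were searched independently and may overlap.
Kdr, chr5:75978456-75978705, minus strand: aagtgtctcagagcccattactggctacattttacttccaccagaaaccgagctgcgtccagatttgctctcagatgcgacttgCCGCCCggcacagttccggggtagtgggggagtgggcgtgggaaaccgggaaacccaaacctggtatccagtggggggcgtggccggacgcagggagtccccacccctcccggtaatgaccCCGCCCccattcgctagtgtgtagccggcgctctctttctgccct
Flt1, chr5:147726012-147726261, minus strand: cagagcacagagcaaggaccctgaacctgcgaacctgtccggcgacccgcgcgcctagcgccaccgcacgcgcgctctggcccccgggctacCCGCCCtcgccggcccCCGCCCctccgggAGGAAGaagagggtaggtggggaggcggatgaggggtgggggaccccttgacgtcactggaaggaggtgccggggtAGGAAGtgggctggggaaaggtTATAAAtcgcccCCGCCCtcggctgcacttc
Tek, chr4:94739039-94739288, plus strand: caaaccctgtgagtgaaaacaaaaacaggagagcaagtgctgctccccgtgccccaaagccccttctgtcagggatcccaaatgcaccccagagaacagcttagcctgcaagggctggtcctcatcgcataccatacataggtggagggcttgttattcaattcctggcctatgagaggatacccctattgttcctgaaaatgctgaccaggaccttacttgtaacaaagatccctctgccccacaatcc
Vegfa, chr17:46032378-46032627, minus strand: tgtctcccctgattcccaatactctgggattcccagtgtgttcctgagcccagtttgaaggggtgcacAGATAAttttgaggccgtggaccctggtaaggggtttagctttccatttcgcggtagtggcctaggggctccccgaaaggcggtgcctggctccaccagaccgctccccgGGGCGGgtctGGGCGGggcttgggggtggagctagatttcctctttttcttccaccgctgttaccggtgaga

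The matches in these windows differed between the genes. Kdr held 2 GC boxes, whose first bases lie at -166 and -45 from the start. Flt1 held 3 GC boxes (-158, -142 and -19), 2 matches to the first ETS motif (-129 and -53) and a TATA box at -31. Vegfa, at the start site shown, held 2 GC boxes (-72 and -62) and 1 GATA motif (-182). A second Vegfa entry in the table, chr17:46025164-46025413, which lies inside the gene and is not printed, held a hypoxia motif at -211 and a GC box at -158 from its own start. The Tek window held no match to any of the 6. Among 32851 promoter windows of the same length, 32.7% held a GC box, 29.5% the first ETS motif, 13.6% the second, 16.6% the hypoxia motif, 12.4% a TATA box and 9.99% the GATA motif. No motif was present in all 4 windows shown.

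The comparison asked how these genes differ between Nat10-deleted and control uteri. The 5 receptors and the ligands Vegfa and Angpt2 had deleted means at 71.1% to 86.9% of the control means, whereas the means of Vegfb, Vegfc and Angpt1 were 102%, 95.8% and 97% of control. In 5 of the 10 genes (Vegfa, Kdr, Flt1, Tek and Angpt2) every deleted library was below every control; among all tested genes 4.6% were lower in this way and 6.12% higher, and none of the 10 was higher. No gene of the 10 passed an adjusted p of 0.05 in limma, nor did any of the 12640 tested genes (0%), the smallest adjusted p being 0.669. With array quality weights in limma 3 of the 10 were called (Kdr, Tie1 and Angpt2) among 316 of the 12640 genes. Among the 3 endothelial and 3 mural markers with the smallest p without these weights, Sox7, Eng and Notch3 were also called. Mmrn2, Anpep and Vtn were not, and calls over these whole marker lists were not counted. Before adjustment, 4 of the 10 had a p under 0.05 with a lower mean (Vegfa, Kdr, Flt4 and Angpt2) and 0 with a higher one, against 2.3% of all tested genes lower and 2.68% higher. Of the 630 genes with a p under 0.05 as deposited 291 were lower, beside 414 of 673 after quantile normalization, 376 of 624 after median centring and 387 of 630 after upper-quartile scaling, with 6 of the 10 genes among the lower ones in each of these scalings (3.28%, 2.97% and 3.06% of all tested genes). As deposited, the count of 4 was 2 without control replicate 3 (1.09% of all tested genes) and 2 without deleted replicate 1 (1.15%). The median log2 change was -0.31 over the 10 genes and 0.03 over all tested genes. Means were lower in 9 of the 10 genes and in 43.4% of all tested genes. The 10 genes were chosen by name with earlier results of these data known. The shares over all tested genes are therefore a background and not a test of the 10.

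**Figure D1:**
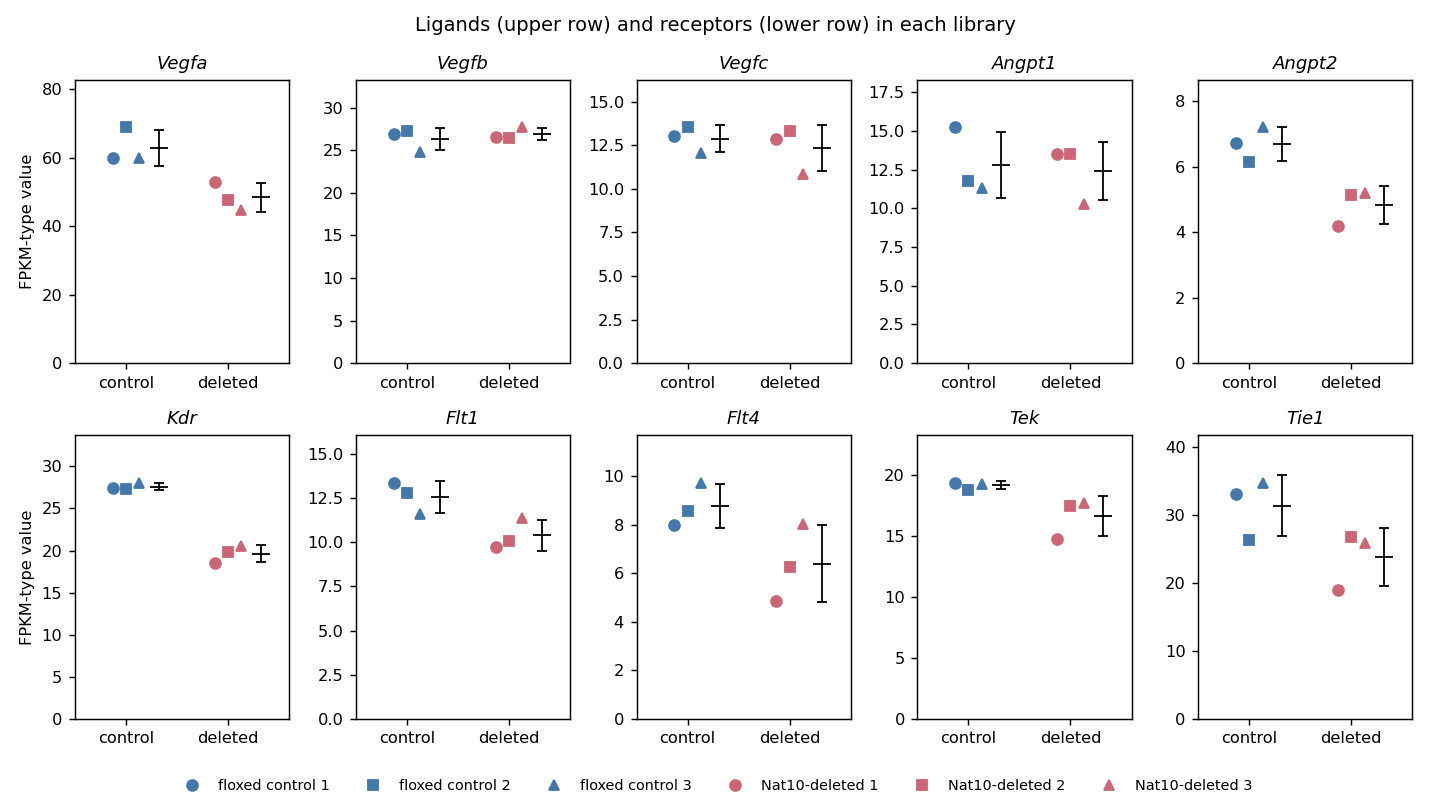
Values of each gene in every library (FPKM-type units, vertical axes from 0), with ligands in the upper row and receptors in the lower row. Blue marks are floxed controls, red marks are Nat10-deleted uteri, the marker shape gives the replicate number, and the black bar is the mean ± SD of 3 libraries. Kdr lies between 27.4 and 28.1 in controls and between 18.5 and 20.6 in deleted uteri, while the 2 groups overlap for Vegfb, Vegfc, Angpt1, Flt4 and Tie1.

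Vegfa (ENSMUSG00000023951; GRCm38 chr17:46016993-46032369, minus strand), the principal angiogenic ligand, was the most abundant of the 10 genes in both groups. Control replicates 1, 2 and 3 gave 59.9, 69 and 59.9, against 53, 47.6 and 44.8 for the same numbers with Nat10 deleted. All 3 deleted libraries were below all 3 controls, and the gap between the groups (from 53 to 59.9) was narrower than the spread among controls. The means were 62.9 ± 5.26 in controls against 48.4 ± 4.16 in deleted uteri (SD, n = 3 each), so the deleted mean was 77% of the control mean. On the log2(value + 1) scale its change was -0.37 (SE 0.12), with an unadjusted p of 0.0138 and an adjusted p of 0.922 in limma. The annotation gives 13 transcripts for Vegfa, and a gene-level value does not separate the isoforms that differ in matrix binding.

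Vegfb (ENSMUSG00000024962; chr19:6982473-6987651, minus strand), a ligand of Flt1 linked mainly to metabolism and cell survival, was 26.9, 27.3 and 24.8 in controls against 26.6, 26.5 and 27.8 with Nat10 deleted. The groups overlapped, with means of 26.3 ± 1.32 and 27 ± 0.696 (SD, n = 3 each). Its log2 change was 0.03, with a 95% interval from -0.20 to 0.26; the sign was negative after quantile normalization and after upper-quartile scaling (-0.003 and -0.001). Vegfc (ENSMUSG00000031520; chr8:54077606-54187096, plus strand), the lymphatic growth factor, was 13.1, 13.6 and 12.1 in controls against 12.9, 13.3 and 10.8 with Nat10 deleted. Deleted replicate 3 held its lowest value, and the other deleted libraries lay inside the control range. The log2 change of Vegfc was -0.06 (95% interval -0.34 to 0.21), and it was 0.02 without deleted replicate 3. The 3 VEGF ligands together summed to 99.9, 110 and 96.7 in controls against 92.4, 87.4 and 83.4 with Nat10 deleted. Vegfa made up 60% to 62.8% of that sum in controls and 53.7% to 57.3% in deleted uteri.

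Kdr (ENSMUSG00000062960; chr5:75932827-75978458, minus strand), the main signalling receptor for Vegfa, had the smallest p of the 10 genes. Controls were at 27.4, 27.4 and 28.1, and deleted libraries at 18.5, 19.8 and 20.6. The lowest control exceeded the highest deleted library by more than the range within either group. Means were 27.6 ± 0.413 in controls against 19.6 ± 1.04 in deleted uteri (SD, n = 3 each), and the deleted mean was 71.1% of control. The log2 change was -0.47 (SE 0.10; 95% interval -0.70 to -0.25). Its unadjusted p of 0.00156 in limma ranked 23 among 12640 genes, and the adjusted p was 0.806. The exact two-sided permutation test gave 0.1, the smallest p that 3 libraries against 3 allow. With each library left out in turn, the change of Kdr ranged from -0.51 to -0.43, and limma's adjusted p over all settings ranged from 0.0386 (array quality weights) to 1.

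Flt1 (ENSMUSG00000029648; chr5:147561604-147726011, minus strand), the decoy-type VEGF receptor, was 13.4, 12.8 and 11.6 in controls against 9.75, 10.1 and 11.4 with Nat10 deleted. The groups did not overlap, but control replicate 3 and deleted replicate 3 lay close together. The deleted mean was 82.6% of control (12.6 ± 0.91 and 10.4 ± 0.882; SD, n = 3 each), with a log2 change of -0.25 (95% interval -0.52 to 0.01). Flt1 has 6 annotated transcripts, and membrane-bound and soluble forms were not separated in these values. Flt4 (ENSMUSG00000020357; chr11:49609263-49652739, plus strand), the receptor for Vegfc, was 7.99, 8.57 and 9.75 in controls against 4.88, 6.27 and 8.06 with Nat10 deleted. Deleted replicates 1 and 2 were below every control, while replicate 3 lay just above the lowest control. The log2 change of Flt4 was -0.42 (95% interval -0.83 to -0.01), -0.26 without deleted replicate 1 and -0.63 with array quality weights (limma adjusted p 0.0519). Together the 3 VEGF receptors summed to 48.8, 48.7 and 49.5 in controls and to 33.1, 36.2 and 40 in deleted uteri. Kdr made up 56.1% to 56.8% of the control sum and 51.4% to 55.9% of the deleted sum.

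Tek (ENSMUSG00000006386; chr4:94739289-94874976, plus strand), the angiopoietin receptor, was 19.4, 18.8 and 19.3 in controls against 14.8, 17.5 and 17.7 with Nat10 deleted. Every deleted library was below every control, and deleted replicate 1 was well below the other 2. The deleted mean was 86.9% of control (19.2 ± 0.317 and 16.7 ± 1.63; SD, n = 3 each). The log2 change was -0.20 (95% interval -0.45 to 0.06), -0.12 without deleted replicate 1 and -0.32 with array quality weights (limma adjusted p 0.0598). Tie1 (ENSMUSG00000033191; chr4:118471191-118490061, minus strand), the partner receptor of Tek, was 33.1, 26.3 and 34.8 in controls against 18.9, 26.8 and 25.8 with Nat10 deleted. Control replicate 2 lay between deleted replicates 2 and 3, so the groups overlapped. The log2 change of Tie1 was -0.39 (95% interval -0.79 to 0.01), and it was -0.24 without deleted replicate 1. Tek and Tie1 together summed to 45.1 to 54.1 in controls against 33.7 to 44.3 with Nat10 deleted.

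Angpt1 (ENSMUSG00000022309; chr15:42424723-42676977, minus strand), the agonist of Tek, was 15.3, 11.8 and 11.3 in controls against 13.5, 13.5 and 10.3 with Nat10 deleted. The groups overlapped widely. Its log2 change was -0.04 (95% interval -0.41 to 0.33), and the sign was positive without control replicate 1 (0.09) and without deleted replicate 3 (0.08). Angpt1 shares 737 exonic bases with Gm17473, a gene on the opposite strand. Strandedness is not given in the sources used here, so reads of the 2 genes cannot be told apart.

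Angpt2 (ENSMUSG00000031465; chr8:18690263-18741562, minus strand), the context-dependent antagonist, was the least abundant of the 10 genes in both groups. Its values were 6.72, 6.16 and 7.22 in controls against 4.18, 5.15 and 5.19 with Nat10 deleted, without overlap. The deleted mean was 72.2% of control (6.7 ± 0.529 and 4.84 ± 0.574; SD, n = 3 each). Its log2 change was -0.40 (SE 0.13), with an unadjusted p of 0.0156 and an adjusted p of 0.922 in limma. Angpt2 lies within the span of Mcph1 on the opposite strand but shares 0 exonic bases with it.

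**Figure D2:**
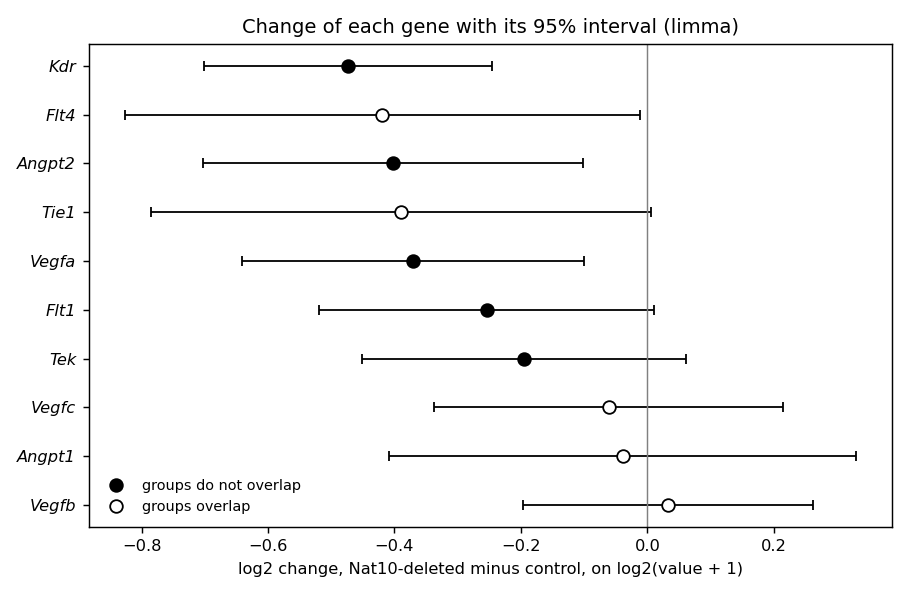
Log2 change of each gene between Nat10-deleted and control uteri on the log2(value + 1) scale, with the 95% interval from limma on 6 libraries. Filled circles are genes whose groups do not overlap. The change of Kdr is -0.47 and the intervals of Kdr, Flt4, Angpt2 and Vegfa lie below 0, while the other 6 span 0.

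The libraries differed in which genes were lowest. In 6 of the 10 genes, namely the 5 receptors and Angpt2, deleted replicate 1 held the lowest value of all 6 libraries. Vegfa, Vegfc and Angpt1 were lowest in deleted replicate 3, and Vegfb in a control. The blood cell markers were also lowest in deleted replicate 1 (summed level 709), and their part in the receptor values was not tested. Deleted replicate 1 was also the library with the lowest score on the second principal component; without it 5 of the 10 genes were lower without overlap (6.06% of all genes tested). Without deleted replicate 2, which stood apart on the first component, 6 of the 10 genes were lower without overlap (14.2% of all genes tested) and 0 were called by limma. Kdr then had a log2 change of -0.48, Tie1 of -0.48 and Angpt2 of -0.44.

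**Figure D3:**
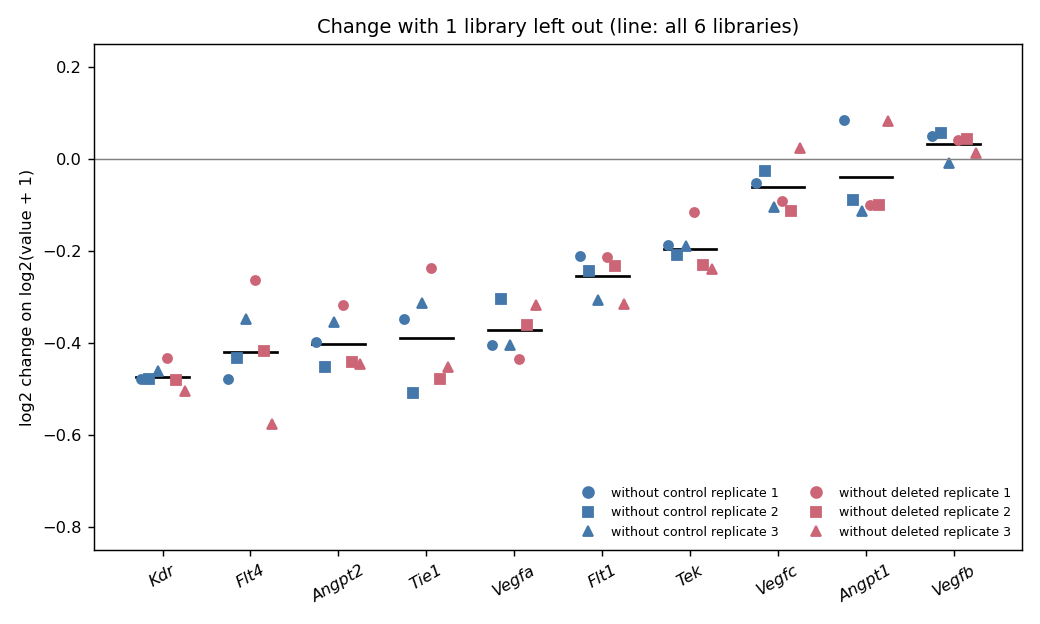
Log2 change of each gene on the log2(value + 1) scale when 1 library is left out; the black line is the change with all 6 libraries, colours give the group of the library left out and marker shapes its replicate number. Kdr stays between -0.51 and -0.43, while Tie1 spans -0.51 to -0.24 and Angpt1, Vegfc and Vegfb have points on both sides of 0.

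Since FPKM-type values are scaled per length, the level of the genes could be ordered within each group. In controls Vegfa (mean 62.9) was followed by Tie1 (31.4), Kdr (27.6), Vegfb (26.3), Tek (19.2), Vegfc (12.9), Angpt1 (12.8), Flt1 (12.6), Flt4 (8.77) and Angpt2 (6.7). The control ranges of Tie1 and Kdr overlapped, as did those of Vegfc and Angpt1 and those of Angpt1 and Flt1; other neighbours were apart. In deleted uteri Vegfb (27) came before Tie1 (23.8) and Kdr (19.6), and its range overlapped that of Tie1. The ranges of Kdr and Vegfb were apart in both groups, with Kdr just above Vegfb in controls (lowest Kdr 27.4, highest Vegfb 27.3) and below it with Nat10 deleted. Flt4 (6.4) and Angpt2 (4.84) overlapped in deleted uteri and not in controls.

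Ratios within a library are not altered by multiplying all values of that library by 1 factor; they were not computed after quantile normalization. A first group of 5 ratios and the levels of 6 genes relative to endothelial markers were compared, 11 quantities in all, each by an exact two-sided permutation test whose smallest p is 0.1 (0.367 after Benjamini-Hochberg adjustment over the 11). Flt1 over Kdr was 0.489, 0.467 and 0.413 in controls against 0.527, 0.507 and 0.555 with Nat10 deleted. It was thus higher in every deleted library, by 0.22 log2 units (exact p 0.1; 0.15 to 0.27 with each library left out). Angpt2 over Angpt1, the balance of antagonist to agonist, was 0.44, 0.523 and 0.636 in controls against 0.309, 0.382 and 0.506 with Nat10 deleted. These groups overlapped (log2 difference -0.43; exact permutation p 0.2), and the difference was -0.26 without deleted replicate 1 and -0.62 without deleted replicate 3. Vegfa over Kdr was 2.13 to 2.52 in controls against 2.18 to 2.86 with Nat10 deleted, with overlap (log2 difference 0.12; exact p 0.6), and the difference was 0.01 without deleted replicate 1. Vegfc over Flt4 (1.24 to 1.64 against 1.35 to 2.64; exact p 0.3) and Tek over Tie1 (0.555 to 0.715 against 0.653 to 0.782; exact p 0.3) also overlapped. With each library left out, the log2 difference ranged from 0.20 (without deleted replicate 1) to 0.69 (without deleted replicate 3) for Vegfc over Flt4 and from 0.12 (without deleted replicate 1 or control replicate 3) to 0.31 (without control replicate 2) for Tek over Tie1.

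Whole uterus contains many cell types, and fewer endothelial cells cannot be told apart from less receptor RNA per endothelial cell by these values alone. The receptors and Angpt2 were therefore set beside 20 blood endothelial markers, such as Pecam1, Cdh5 and Emcn, none of which is among the 10 genes. The mean log2 level of the 20 markers was 4.85, 4.68 and 4.82 in controls against 4.54, 4.57 and 4.65 with Nat10 deleted, lower in each deleted library, by 0.20 on average. Without Plvap, a marker chosen here after its value was seen (log2 change -0.85), the groups overlapped and the difference of the mean was -0.16. The median change of the 20 markers was -0.12, and the library medians of the centred markers also overlapped. Of these 20 markers 17 had a lower mean in deleted uteri (beside 43.4% of all tested genes) and 4 were lower without overlap (beside 4.6%); their summed level overlapped (723 to 807 in controls, 657 to 785 in deleted). Sox7, an endothelial transcription factor gene, had a log2 change of -0.57, Eng, a TGF-beta co-receptor gene, -0.41, and Mmrn2, an endothelial matrix gene, -0.32 (limma adjusted p 0.922 each).

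Relative to the mean of these markers, Kdr was lower in every deleted library. Its relative log2 level was -0.08, 0.09 and -0.01 in controls against -0.33, -0.26 and -0.29 with Nat10 deleted (control mean 0.00, deleted mean -0.29; exact permutation p 0.1). Angpt2 was also lower without overlap, at -2.10, -2.06 and -1.96 in controls against -2.48, -2.20 and -2.27 with Nat10 deleted, a difference of -0.28 (exact p 0.1). Tek overlapped in this measure, with a difference of -0.01 (-0.53 ± 0.07 against -0.53 ± 0.11; SD, n = 3 each; exact permutation p 1), and its sign turned with single libraries left out (-0.06 to 0.05). The difference was -0.08 for Flt1 (exact p 0.5), -0.21 for Tie1 (exact p 0.3) and -0.28 for Flt4 (exact p 0.2), all with overlapping groups. With each library left out, the difference ranged from -0.31 (without deleted replicate 2) to -0.07 (without deleted replicate 1) for Tie1. It ranged from -0.43 (without deleted replicate 3) to -0.12 (without deleted replicate 1) for Flt4, and from -0.15 (without control replicate 3) to -0.02 (without control replicate 2) for Flt1. Set against the median of the 20 markers, the groups of Kdr (difference -0.37) and Angpt2 (-0.35) did not overlap, while those of Tek (-0.08), Flt1 (-0.15), Tie1 (-0.28) and Flt4 (-0.35) did. Set against Pecam1, Cdh5 and Emcn alone, the differences were -0.33 for Kdr, -0.31 for Angpt2, -0.31 for Flt4, -0.24 for Tie1, -0.11 for Flt1 and -0.04 for Tek.

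**Figure D4:**
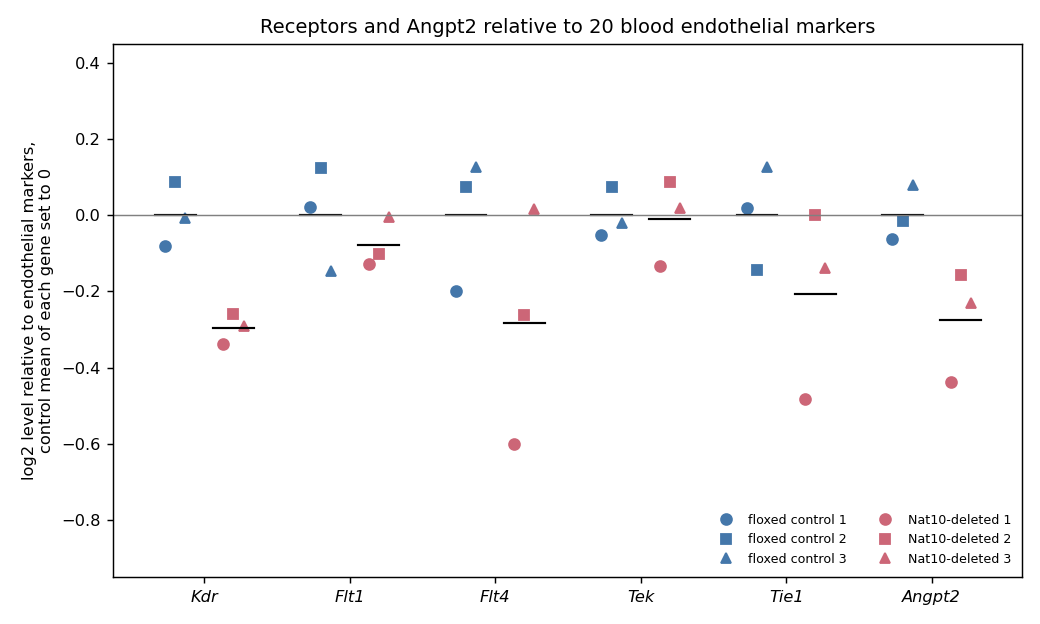
Log2 level of the 5 receptors and Angpt2 minus the mean log2 level of 20 blood endothelial markers in each library, with the control mean of each gene set to 0 and black lines at the group means of 3 libraries. Kdr and Angpt2 are lower in all 3 deleted libraries than in all 3 controls, while the groups overlap for Flt1, Flt4, Tek and Tie1.

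Markers of other vascular cells were examined for the same reason. Over all tested genes 43.4% had a lower mean, and 4.6% were lower and 6.12% higher without overlap. Of 6 lymphatic endothelial markers 5 had a lower mean in deleted uteri and 1 was lower without overlap, and their summed level was 122 to 138 in controls against 104 to 127 with Nat10 deleted. That single gene was Ccl21a, a lymphatic chemokine gene (log2 change -0.33; near-identical copies exist, so its value is uncertain). Prox1, the transcription factor gene that defines lymphatic endothelium, was 2.38 ± 0.0729 in controls against 1.8 ± 0.486 in deleted uteri (SD, n = 3 each), with overlap. Of 11 pericyte and mural markers 8 had a lower mean and 1 was lower without overlap (Notch3, log2 change -0.37, and -0.15 without deleted replicate 1; limma adjusted p 0.922); their summed level was 640 to 722 in controls against 564 to 685 with Nat10 deleted. Stroma markers had a median change of -0.26 with 2 of 8 lower without overlap, and epithelial markers one of 0.25 with 4 of 8 higher without overlap. The summed levels of both lists overlapped between the groups. They were 1510 to 1620 in controls against 1180 to 1600 with Nat10 deleted for stroma, and 607 to 708 against 692 to 785 for epithelium. The part of a shift between these cell types in the values of the 10 genes was not tested.

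The wider pathway was read from 6 lists holding 85 other genes, of which 80 passed the filter; Nos3 and Pgf stand in 2 of these lists, and Cdh5 and Cldn5 also among the endothelial markers. None was called by limma, 7 had a lower and 1 a higher mean at an unadjusted p under 0.05 (beside 2.3% and 2.68% of all tested genes), and 11 were lower and 1 higher without overlap (4.6% and 6.12% of all tested genes). Their median log2 change was -0.02, beside 0.03 for all tested genes, with 45 lower and 35 higher on average.

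Among 5 tested other ligands 2 were lower without overlap. These were Angptl2, an angiopoietin-like secreted protein gene (65.8 ± 6.17 in controls against 47.8 ± 4.61 in deleted uteri), and Apln, the apelin gene (4.19 ± 0.49 and 3.37 ± 0.405; SD, n = 3 each). Pgf, a further Flt1 ligand, was 6.44 ± 1.27 and 8.69 ± 4.82 (SD, n = 3 each) and overlapped. Among 12 co-receptors and receptor regulators 2 were lower without overlap: Nrp2, the co-receptor of Flt4 and Kdr (19.2 ± 1.1 and 14.2 ± 3.05), and Itgb3, an integrin chain gene (7.45 ± 0.888 and 4.97 ± 0.653; SD, n = 3 each). Their log2 changes were -0.43 and -0.50, with limma adjusted p of 0.922 for both. Of 10 tested antagonists 1 was lower without overlap, the semaphorin gene Sema3f (log2 change -0.32), and the list median was -0.03.

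The 22 intracellular relay genes had a median change of -0.01. Of these, 2 were lower without overlap, the kinase gene Fyn (46.6 ± 1.92 and 38.9 ± 2.47) and Nos3, the endothelial nitric oxide synthase gene (7.72 ± 0.211 and 6.35 ± 1.27; SD, n = 3 each). The log2 change of Nos3 was -0.26, and -0.12 without deleted replicate 2. Of 19 tested endothelial response genes 4 were lower and 1 higher without overlap, with a median of -0.02. Aplnr, the apelin receptor gene, was 32.4 ± 4.32 in controls against 18.8 ± 6.38 in deleted uteri (SD, n = 3 each; log2 change -0.79). Cxcr4, a chemokine receptor gene, was higher in every deleted library, at 12 ± 0.973 and 19.7 ± 4.51 (SD, n = 3 each; log2 change 0.65). Of 14 tested Vegfa inducers and oxygen sensing genes 1 was lower without overlap, the progesterone receptor gene Pgr (65.5 ± 7.31 and 31.1 ± 5.14; SD, n = 3 each), and the list median was -0.02. Epas1, which encodes the hypoxia-inducible factor subunit of endothelium, was 42.8 ± 1.66 and 37.8 ± 4.81 (SD, n = 3 each), with overlap.

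**Figure D5:**
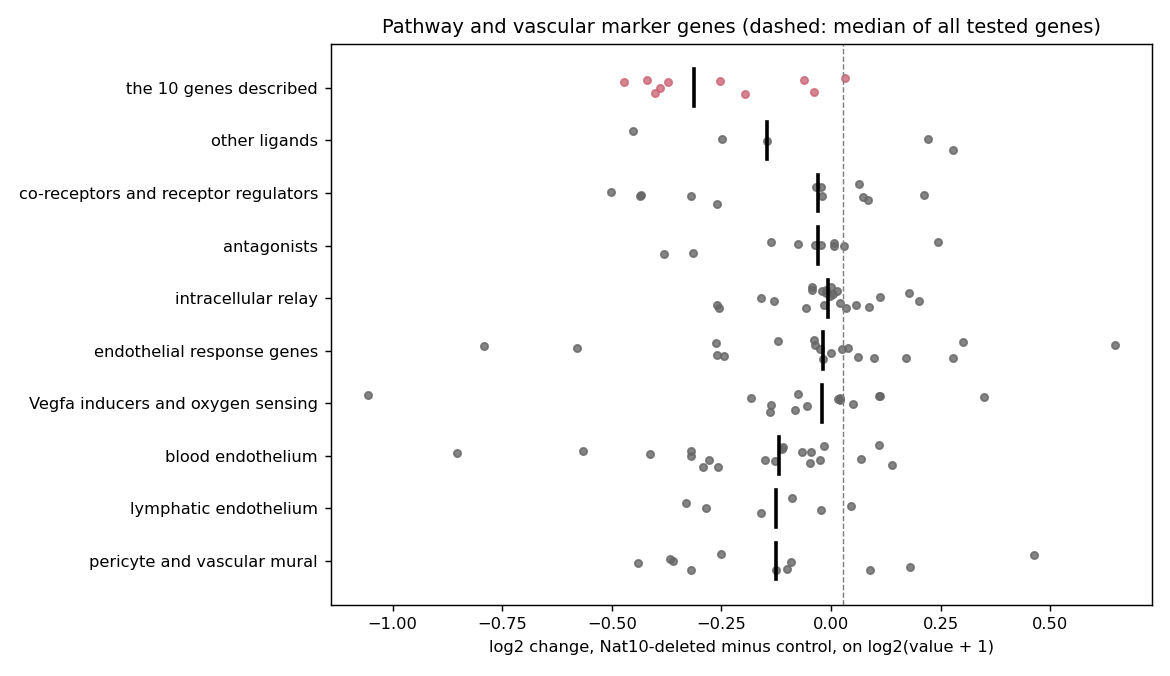
Log2 change on the log2(value + 1) scale of every tested gene in the 10 genes described, the 6 pathway lists and the vascular marker lists; black bars are list medians, vertical scatter is only for legibility, and the dashed line is the median of all tested genes (0.03). The median of the 10 genes is -0.31 and those of the pathway lists lie between -0.15 and -0.01.

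The genes whose profile over the 6 libraries was most like that of Kdr were found by the root mean square difference of log2(value + 1) after centring each gene on its own mean, among 9997 genes with a mean of at least 5. They were Tubb4a (difference 0.0204), Plxnd1 (0.029), Islr (0.0424), Hs3st1 (0.0514) and Frem2 (0.0648). Plxnd1 was 49.1, 47.7 and 49.1 in controls against 32.5, 35.6 and 38.2 with Nat10 deleted. For Vegfa the nearest were Itga9 (0.0547), Tnfsf13 (0.0658), Atp2b4 (0.083), Mdn1 (0.084) and Tspan18 (0.0879), none of which was nearest to Kdr. That these genes were also lower with Nat10 deleted follows from how they were chosen.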

How the data were processed

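RNA was extracted with TRIzol and poly(A) libraries were made with a TruSeq kit, per the labels' protocols. HISAT2 2.2.1, Cufflinks 2.2.1 and build mm10 are named per the submitters' processing notes; annotation, filters and strandedness are not given in the sources used here. The deposited values are FPKM-type values made by the authors, a unit inferred from the values and from Cufflinks. Total reads per library are unknown; relative depth was estimated from the commonest ratio between libraries among their lowest values. Coordinates are from GENCODE M21 (GRCm38, the same assembly as mm10).

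Values were analysed as log2(value + 1) for the 12640 genes that reached 1 in 3 or more libraries, with limma 3.58.1 in R 4.3.3 (eBayes with trend, group as the only term, all 6 libraries), Benjamini-Hochberg adjustment over all tested genes and a threshold of 0.05. A fold change on this scale understates the change of low genes. Single values were compared by exact permutation (scipy 1.17.1). The fit was tested on simulated data. The 10 genes, the gene lists and the tests were chosen with earlier results of these data known. Named genes are the 10, Nat10, at most 3 with the smallest p per list, and the 5 nearest to Kdr and to Vegfa. Alternatives were other scalings, pseudocount, filters, eBayes settings, array quality weights, a block on replicate number and omission of single libraries; 2 other endothelial references (the median, and the mean without Plvap) were added after seeing the data. No 2 libraries held identical values.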

Additional observations from a re-analysis of the deposited data

How the results depend on the processing

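No alternative turned the direction of Vegfa, Kdr, Flt1, Flt4, Tek, Tie1 or Angpt2. With array quality weights, which gave deleted replicate 1 a weight of 3.74 and deleted replicate 2 one of 0.224, 316 genes, 3 of the 10 genes and 7 pathway genes were called by limma, and 7 of the 10 were lower at an unadjusted p under 0.05, beside 13.4% of all tested genes. The 3 were Kdr (log2 change -0.53, adjusted p 0.0386), Angpt2 (-0.53, 0.0459) and Tie1 (-0.64, 0.0481). The endothelial markers Eng (-0.60, 0.0386) and Sox7 (-0.67, 0.0422) and the mural marker Notch3 (-0.70, 0.047) were called in the same fit. Of the other markers with the smallest p in these lists, Mmrn2 (-0.42, 0.0503), Anpep (-0.40, 0.0637) and Vtn (-0.46, 0.0575) were not called. Calls over these whole marker lists were not counted. The pathway genes called in this fit were Angptl2, Itgb3, Nrp2, Vash1, Cxcr4, Aplnr and Pgr. Among the genes not called there were Flt4 (-0.63, 0.0519), Tek (-0.32, 0.0598), Flt1 (-0.33, 0.065) and Vegfa (-0.26, 0.106). Leaving out 1 library gave 0 to 12 called genes (12 without deleted replicate 2), 0 of the 10 called, 2 to 5 of the 10 lower at an unadjusted p under 0.05 (beside 1.09% to 6.46% of all tested genes) and 5 to 6 lower without overlap (beside 6.06% to 14.7%). At an unadjusted p under 0.05, 291 of 630 genes were lower in the deposited scaling, 414 of 673 after quantile normalization, 376 of 624 after median centring and 387 of 630 after upper-quartile scaling. Under these scalings 7, 7 and 6 of the 10 were lower without overlap, beside 6.55%, 6.43% and 6.5% of all genes. The Vegfb change turned negative after quantile normalization (-0.003), after upper-quartile scaling (-0.001) and without control replicate 3 (-0.008; range -0.008 to 0.057 with each library left out). The Vegfc change was 0.023 without deleted replicate 3 (range -0.114 to 0.023). The Angpt1 change was 0.003 with array quality weights, 0.085 without control replicate 1 and 0.082 without deleted replicate 3 (range -0.114 to 0.085). The Pgf change was -0.098 without deleted replicate 3 (range -0.098 to 0.595), and the Reln change, a lymphatic marker, was 0.075 without deleted replicate 2 (range -0.452 to 0.075). The cause of these turns was not tested. Relative to the median of the endothelial markers, a reference chosen after seeing the data, the difference of Kdr was -0.366. With the mean absolute difference, 4 of the 5 genes nearest to Kdr and 3 of the 5 nearest to Vegfa were shared. DESeq2 on counts was not run, since FPKM-type values are not counts.

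The replicate numbers did not pair the libraries. Deviations from the group means of same-numbered libraries correlated at -0.341, -0.029 and 0.1 across genes, and not every library correlated best with its own number. With the replicate number as a block 0 genes were called, 726 had an unadjusted p under 0.05, and the log2 change of Kdr stayed at -0.47; this block changed no call. Total depth is unknown, and 3 libraries per group limit the precision of every value.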
